A study of Mus musculus with 4 samples.

Results

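The mitosis genes described here are 48 genes whose products act from entry into mitosis to the separation of the daughter cells. They were taken from a list of gene symbols for G2/M, kinetochore, spindle and cytokinesis proteins, and the rule uses no measured value. All 48 had a row among the 16449 genes of the count table. The tissue was the dorsal and medial pallium, the embryonic territory of the cortex and hippocampus, dissected from mouse embryos at E11.5 and sequenced as long poly(A) reads on the Nanopore platform. There were 4 libraries, 2 labelled WT and 2 labelled Tut1 knockout. The product of Tut1 extends the 3′ end of U6, a small nuclear RNA of the spliceosome, with uridines. In the knockout design a Tut1 allele with a floxed exon is recombined by Cre expressed from the Emx1 locus, which is active in neural stem cells of the pallium, so cells of other origin in the dissected tissue keep the gene. The labels name the controls only as WT. A supplementary table of sequencing statistics gives the controls as homozygous floxed without Cre, while elsewhere the study uses WT for heterozygous and homozygous floxed animals alike. How many embryos entered a library is not stated. The p-values here rest only on the spread between libraries, pooled largely over genes, and that spread may be technical.

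Mitosis is driven by cyclin-dependent kinase 1 bound to cyclin A or B. Condensin and topoisomerase II compact the chromosomes, kinetochores built on centromeres attach them to the spindle, and the spindle checkpoint holds the cell until every chromosome is attached. The anaphase-promoting complex then marks cyclin B and securin for destruction, and the midzone and contractile ring divide the cell. Most of these genes are transcribed in G2 and mitosis, when repression by the DREAM complex has given way to activation by B-MYB and FOXM1. In the early pallium the dividing cells are the neuroepithelial and radial glial progenitors, which round up and divide at the ventricular surface, while the neurons they produce have left the cell cycle.

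The start regions of the genes below are shown first because late cell cycle genes are known for short letter strings near their starts, namely the cell cycle genes homology region (CHR, searched as TTTGAA and TTCGAA) and the CCAAT box. Both strands were searched in RefSeq windows of 300 bases on GRCm38.p6, from 250 bases before the start to 50 after it, and matches are in capitals. Mki67, Cenpf and Mad2l1 are the members past the threshold of the test given further on, Cdca3 had the lowest log2 fold change together with Cdca8, Top2a held 4 CHR matches and Kif4 was the member with higher levels in both libraries labelled Tut1 knockout.

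Mki67, chr7:135716330-135716629, minus strand: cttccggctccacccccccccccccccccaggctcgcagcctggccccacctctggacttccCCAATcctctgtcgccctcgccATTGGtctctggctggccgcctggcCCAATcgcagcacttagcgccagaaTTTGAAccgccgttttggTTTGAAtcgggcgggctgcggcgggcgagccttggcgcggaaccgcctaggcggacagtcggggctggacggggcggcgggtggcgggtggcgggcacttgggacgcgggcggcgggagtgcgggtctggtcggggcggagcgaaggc
Cenpf, chr1:189688037-189688336, minus strand: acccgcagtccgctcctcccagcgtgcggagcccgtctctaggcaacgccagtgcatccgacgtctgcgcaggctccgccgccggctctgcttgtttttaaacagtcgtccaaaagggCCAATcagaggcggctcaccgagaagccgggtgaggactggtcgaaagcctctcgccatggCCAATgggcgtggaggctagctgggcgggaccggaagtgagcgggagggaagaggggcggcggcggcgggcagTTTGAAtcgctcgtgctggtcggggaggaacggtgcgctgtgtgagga
Mad2l1, chr6:66534971-66535270, plus strand: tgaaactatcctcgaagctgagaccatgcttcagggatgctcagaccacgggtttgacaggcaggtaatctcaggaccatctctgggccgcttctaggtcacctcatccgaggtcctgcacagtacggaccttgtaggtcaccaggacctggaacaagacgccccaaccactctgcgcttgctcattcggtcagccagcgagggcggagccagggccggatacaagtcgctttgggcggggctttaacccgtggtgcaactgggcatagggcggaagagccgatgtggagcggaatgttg
Cdca3, chr6:124829926-124830225, plus strand: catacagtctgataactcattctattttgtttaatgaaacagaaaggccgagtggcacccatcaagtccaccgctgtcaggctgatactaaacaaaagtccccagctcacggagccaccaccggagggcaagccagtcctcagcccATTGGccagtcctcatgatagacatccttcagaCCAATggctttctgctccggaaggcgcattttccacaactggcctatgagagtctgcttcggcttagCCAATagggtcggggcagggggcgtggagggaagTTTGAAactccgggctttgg
Top2a, chr11:99024140-99024439, minus strand: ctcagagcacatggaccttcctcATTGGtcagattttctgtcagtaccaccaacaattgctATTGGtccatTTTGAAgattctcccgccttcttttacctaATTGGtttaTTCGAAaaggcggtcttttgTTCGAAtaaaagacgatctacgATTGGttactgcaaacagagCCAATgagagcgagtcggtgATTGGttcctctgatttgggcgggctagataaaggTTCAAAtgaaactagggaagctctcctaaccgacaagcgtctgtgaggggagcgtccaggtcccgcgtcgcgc
Kif4, chrX:100625815-100626114, plus strand: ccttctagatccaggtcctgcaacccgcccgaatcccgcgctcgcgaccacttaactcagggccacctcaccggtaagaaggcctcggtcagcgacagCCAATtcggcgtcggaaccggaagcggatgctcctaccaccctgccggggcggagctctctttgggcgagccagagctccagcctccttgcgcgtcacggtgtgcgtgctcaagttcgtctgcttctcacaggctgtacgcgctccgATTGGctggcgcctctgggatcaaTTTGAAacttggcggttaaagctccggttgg

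With the RefSeq start counted as 1, the CHR letters began at 3 in Cenpf, at 31 in Cdca3 and at 20 in Kif4. In Mki67 they began at -116 and -98, and in Top2a at -179, -140, -120 and -23, the last as TTCAAA, the same letters read on the other strand. The CCAAT letters stood upstream of the start in each of these 5 windows, for example at -188, -166 and -141 in Mki67 and at -132 and -71 in Cenpf. The Mad2l1 window held neither string, and its RefSeq start lies upstream of the start of the gene in GENCODE, at 66535390. The RefSeq start of Kif4 lies downstream of the start in GENCODE, at 100625737.

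RefSeq windows were matched for 42 of the 48 genes. Ccna2, Kif20a, Incenp, Aurkb, Tpx2 and Smc4 were not matched. A gene was counted when any of its windows held the letters. CHR letters were found in 34 of the 42 genes (81%), against 16.9% of the 4478 tested genes with a window and 21.7% of the 27025 genes with a window. Counted by window and not by gene, they were in 19.2% of all 32851 promoter windows. CCAAT letters were found in 33 of the 42 genes (78.6%), against 45% of the tested genes and 41.1% of the genes with a window, or 37.4% counted by window. In 30 of the 42 (71.4%) both strings were present, against 9.11% of the tested genes. The CHR letters also stood close to the start: 31 of the 42 genes (73.8%) had a match within 50 bases on either side of it, against 5.05% of the tested genes, and the match shared bases with a CCAAT match in 1 member.

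**Figure D1:**
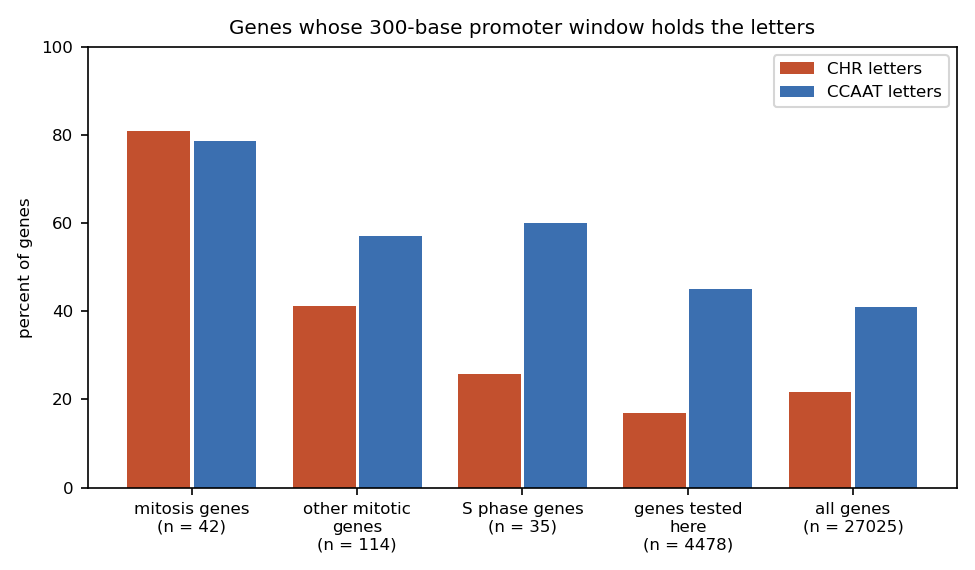
Percent of genes (vertical axis) whose 300-base RefSeq promoter window held CHR or CCAAT letters on either strand, for the mitosis genes, 114 other mitotic genes, 35 S phase genes, the tested genes and all genes with a window. CHR letters were in 81% of the mitosis genes, 41.2% of the other mitotic genes and 25.7% of the S phase genes.

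Members with and without the letters had close medians. The 31 tested members with CHR letters had a median of -0.47 (29 below 0), and the 7 with a window without them had -0.43 (6 below 0). Across the 695 tested genes outside the mitotic lists that had CHR letters, the median was -0.02. A match describes the letters of the window and nothing about what binds there.

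The libraries held 305642 to 397150 counts over 12442 to 13158 genes with a count. The median tested gene had 19 to 25 counts, so most mitosis genes were measured from few counted reads. The sequencing statistics of the study list many times more reads per library than these counts. The reason for that gap is not given in the sources used here. Levels are given as CPM, the depth-scaled count of edgeR taken here over TMM-scaled counts in tested genes, in which 1 count was worth 2.66 to 3.47 CPM. Tut1 itself had 6 and 11 counts in WT against 29 and 25 in the libraries labelled Tut1 knockout, a log2 fold change of 1.71 ± 0.40 (SE, adjusted p = 0.0113, edgeR), which goes against the label. Since the count covers the whole gene, it does not show whether the floxed exon was lost. The labels are therefore not checked by the targeted gene. The sequencing statistics of the study list 12442 and 12788 detected genes for the controls and 13158 and 12522 for the Cre libraries. The columns labelled WT and Tut1 knockout held the same numbers of genes with a count. That ties the columns to the stated genotypes and does not check the genotypes. The groups are called by their labels throughout. Of the 5878 genes that passed a filter on low counts, 121 (2.06%) were past an adjusted p of 0.05 in either direction and 39 (0.663%) were lower in the libraries labelled Tut1 knockout.

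The mitosis genes were lower as a group in the libraries labelled Tut1 knockout, and 3 of them passed the test. Of the 48 genes 44 passed the filter, and 40 of the 44 had a log2 fold change below 0, against 51.6% of all tested genes. The median of their log2 fold changes was -0.42, a difference of -25% between the groups, where all tested genes had a median of -0.01. With the filter removed, the median over all 48 genes was -0.39. In 27 of the 44 both libraries labelled Tut1 knockout lay below both WT libraries, against 20.8% of all tested genes, and in 1 both lay above, against 22.1%. An unadjusted p below 0.05 was reached by 14 members, each with the lower level in the libraries labelled Tut1 knockout, against 6.31% of all tested genes in that direction. Past the threshold over all genes were 3 members, Mki67, Cenpf and Mad2l1, and each of them fell. With DESeq2 none of the 3 calls was kept (adjusted p of 0.261, 0.281 and 0.417), and with scaling by total counts Cenpf was lost (adjusted p = 0.0609, edgeR). The log2 fold changes of Cenpf and Mad2l1 were -0.48 and -0.87 by both edgeR and DESeq2, and Cenpf had -0.42 with total counts. In bulk tissue fewer cells in mitosis and less of each RNA per cell cannot be told apart.

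**Figure D2:**
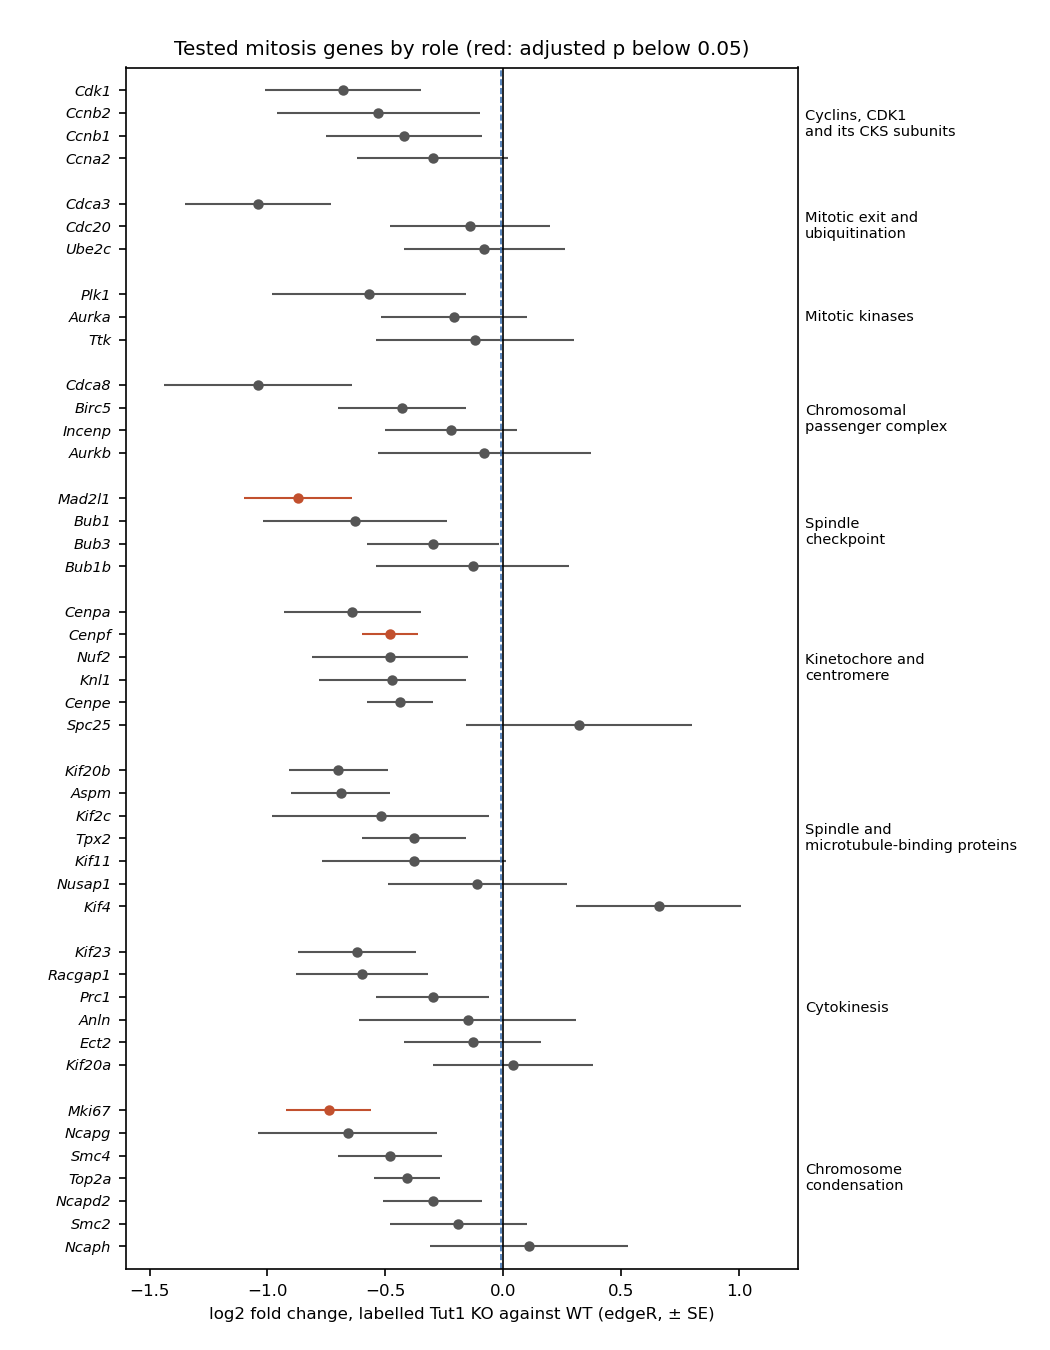
Log2 fold change (horizontal axis, libraries labelled Tut1 knockout against WT, edgeR estimate with SE as bars) of the 44 tested mitosis genes, grouped by role, with the median of all tested genes at -0.01 as a dashed line. Points in red are Mki67, Cenpf and Mad2l1, the 3 genes past an adjusted p of 0.05, and 40 of the 44 points lie left of 0.

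Summed over the 48 genes, the level was 9466 and 9044 CPM in WT against 6418 and 7144 CPM in the libraries labelled Tut1 knockout, so the groups did not overlap. As a share of all counts this was 0.866% and 0.825% in WT and 0.608% and 0.673% in the others. Cenpf, Cenpe and Top2a supplied a large part of those counts. Without them the sum was 5125 and 5069 CPM against 3588 and 3866 CPM, the median over the remaining 41 tested genes was -0.38, and 37 of the 41 were below 0. Both libraries labelled Tut1 knockout carried the difference: the median gene lay -0.47 and -0.33 from the WT mean on the log2 scale, with 38 and 37 of the 44 genes below it. The first of them held the lowest of the 4 values for 25 genes and the second for 16. The highest value was in WT 1 for 18 genes and in WT 2 for 18.

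**Figure D3:**
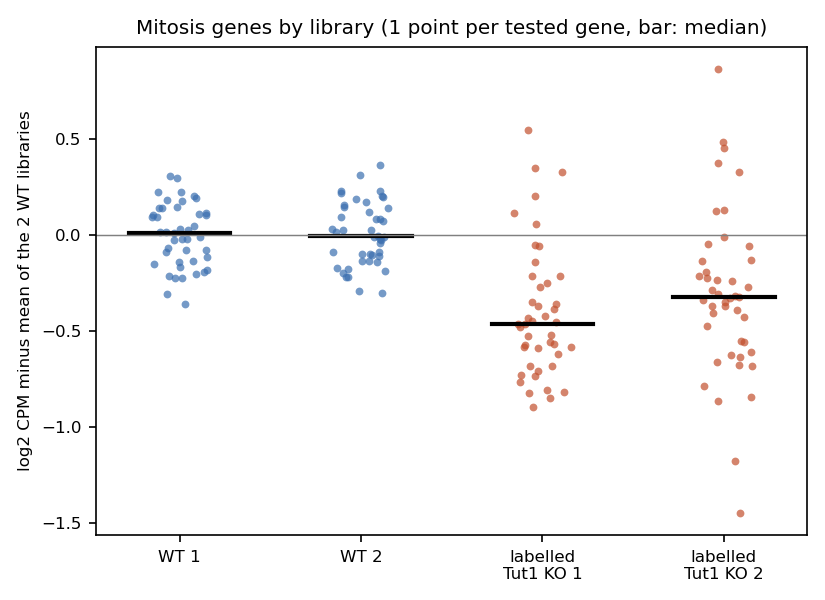
Log2 CPM of each tested mitosis gene minus its mean in the 2 WT libraries (vertical axis), by library, with 1 point per gene and the median as a bar. The WT points mirror each other around 0 by construction, and the medians of the libraries labelled Tut1 knockout lie at -0.47 and -0.33.

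The count behind a gene decided how finely its difference was measured. The 18 members with a mean level of 100 CPM or more had standard errors of 0.12 to 0.29, all 18 had a log2 fold change below 0, their median was -0.46 and they included the 3 called genes. In 15 of the 18 the groups did not overlap. Of all 1906 tested genes at that level, 3.67% were called, 59.1% were below 0, 28.1% had both libraries labelled Tut1 knockout below both WT libraries, and the median was -0.07. The 26 members below 100 CPM had standard errors of 0.29 to 0.48, of a size with most of their differences, and 22 of them were below 0 with a median of -0.26. Of the 3972 tested genes below that level 48% were below 0, with a median of 0.03.

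Entry into mitosis depends on the A- and B-type cyclins and their kinase. All 4 tested genes of this group had lower CPM in both libraries labelled Tut1 knockout than in either WT library, against 20.8% of all tested genes, with log2 fold changes of -0.30 to -0.68, and none passed the test over all genes. Cdk1, the kinase itself, had 81.8 and 92.2 CPM in WT against 55.8 and 52.1 CPM in the libraries labelled Tut1 knockout. Its log2 fold change was -0.68 ± 0.33 (adjusted p = 0.335, edgeR). Ccna2, which encodes cyclin A2, had 84.8 and 81.0 CPM in WT against 79.7 and 52.1 CPM in the others, so that only the second library labelled Tut1 knockout stood well below WT and the first was just below it, and its log2 fold change was -0.30 ± 0.32. The B-type cyclin genes Ccnb1 and Ccnb2 had log2 fold changes of -0.42 ± 0.33 and -0.53 ± 0.43. Ccnb1 has 5 pseudogene copies of up to 99.2% identity, none with a row in the count table. How reads shared with copies were assigned is not stated. Ccna2 shares 431 exonic bases with Exosc9 on the other strand. Cks1b and Cks2, small subunits that bind the kinase, did not pass the filter: Cks1b had 5 and 1 counts in WT against 3 and 5 in the libraries labelled Tut1 knockout, and Cks2 had 2 and 3 against 4 and 1.

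The 3 genes of mitotic exit and ubiquitination had unlike values, and none passed the test. Cdca3, an F-box-like protein that leads the entry inhibitor WEE1 to degradation, had 127 and 109 CPM in WT against 63.8 and 48.6 CPM in the libraries labelled Tut1 knockout. The groups were well apart, and the log2 fold change of -1.04 ± 0.31 was as low as any among the members while missing the threshold over all genes (adjusted p = 0.0626, edgeR). Cdc20, the activator of the anaphase-promoting complex, and Ube2c, the ubiquitin-conjugating enzyme that works with it, had overlapping groups, with log2 fold changes of -0.14 ± 0.34 and -0.08 ± 0.34.

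Of the 3 mitotic kinases outside the CDK1 and Aurora B complexes none passed the test. Plk1, the Polo-like kinase of centrosome maturation and mitotic entry, had 48.5 and 50.3 CPM in WT against 26.6 and 41.7 CPM in the libraries labelled Tut1 knockout, a log2 fold change of -0.57 ± 0.41 (adjusted p = 0.597, edgeR). Aurka, the Aurora kinase of the spindle poles, had 84.8 and 83.8 CPM against 63.8 and 83.4 CPM, so that the second library labelled Tut1 knockout was level with WT, and its log2 fold change was -0.21 ± 0.31. Ttk, the checkpoint kinase MPS1, had overlapping groups and a log2 fold change of -0.12 ± 0.42.

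The chromosomal passenger complex, which corrects faulty attachments and later guides cytokinesis, consists of Aurora B and 3 partners, and all 4 genes had log2 fold changes below 0 with a median of -0.32. Cdca8, which encodes the partner borealin, had 57.6 and 78.2 CPM in WT against 42.5 and 20.8 CPM in the libraries labelled Tut1 knockout. Its groups did not overlap, at a log2 fold change of -1.04 ± 0.40 (adjusted p = 0.186, edgeR), although the lowest value rested on 6 counts. Birc5, the partner survivin, had a log2 fold change of -0.43 ± 0.27 with groups that did not overlap. Incenp, the scaffold of the complex, had 170 and 109 CPM in WT against 93 and 149 CPM in the others, and the groups overlapped. Aurkb, the kinase itself, had a log2 fold change of -0.08 ± 0.45 from 7 to 16 counts per library.

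Among the 4 spindle checkpoint genes Mad2l1 fell. It encodes MAD2, the protein that unattached kinetochores convert into the inhibitor of CDC20, and lies on chromosome 6 from 66535390 to 66547220 (GRCm38, plus strand). Its level was 257 and 268 CPM in WT against 138 and 149 CPM in the libraries labelled Tut1 knockout, or 263 ± 7.55 and 144 ± 7.89 CPM (SD, n = 2 each). The gap between the groups was many times the spread within either, and the log2 fold change was -0.87 ± 0.23 (adjusted p = 0.028, edgeR). With any 1 library left out it missed the threshold, at adjusted p of 0.0992 and 0.119 without a WT library and 0.333 and 0.16 without a library labelled Tut1 knockout, while the log2 fold change stayed between -0.81 and -0.93. Mad2l1 has 2 processed pseudogene copies, 95.4% identical over 454 bases and 92.1% over 571 bases, and neither has a row in the count table. The kinase gene Bub1 had a log2 fold change of -0.63 ± 0.39 with groups that did not overlap, whereas Bub3 at -0.30 ± 0.28 and Bub1b at -0.13 ± 0.41 had overlapping groups.

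The kinetochore and centromere group included Cenpf, the member with the highest counts, and had a median of -0.47 on the log2 fold scale, and 5 of its 6 genes were lower in both libraries labelled Tut1 knockout than in either WT library, against 20.8% of all tested genes. Cenpf, a large protein of the outer kinetochore and nuclear matrix, lies on chromosome 1 from 189640606 to 189688086 (minus strand). It had 1730 and 1630 CPM in WT against 1120 and 1300 CPM in the libraries labelled Tut1 knockout, which is 1680 ± 69.7 against 1210 ± 127 CPM (SD, n = 2 each). It fell by 0.48 ± 0.12 on the log2 scale (adjusted p = 0.0287, edgeR), a difference of -28.3%. Its log2 fold change was -0.44 and -0.53 without WT 1 or WT 2, and -0.37 and -0.59 without the first or second library labelled Tut1 knockout. It missed the threshold each time, so this call too rested on all 4 libraries. Cenpe, the kinesin that carries chromosomes toward the spindle equator, had 1240 and 1220 CPM in WT against 826 and 993 CPM in the others, a log2 fold change of -0.44 ± 0.14 (adjusted p = 0.0742, edgeR), and limma-voom called it (adjusted p = 0.0492).

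Cenpa, the histone H3 variant that marks centromeres, had 136 and 112 CPM in WT against 90.4 and 66.0 CPM in the libraries labelled Tut1 knockout, without overlap, and a log2 fold change of -0.64 ± 0.29 (adjusted p = 0.287, edgeR). Knl1 and Nuf2, which encode subunits of the microtubule-binding KMN network, had log2 fold changes of -0.47 ± 0.31 and -0.48 ± 0.33, also without overlap. Spc25, a partner of NUF2 in the NDC80 complex, had 8 and 11 counts in WT against 16 and 7 in the others, a log2 fold change of 0.32 ± 0.48, so its direction was not resolved at this depth.

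**Figure D4:**
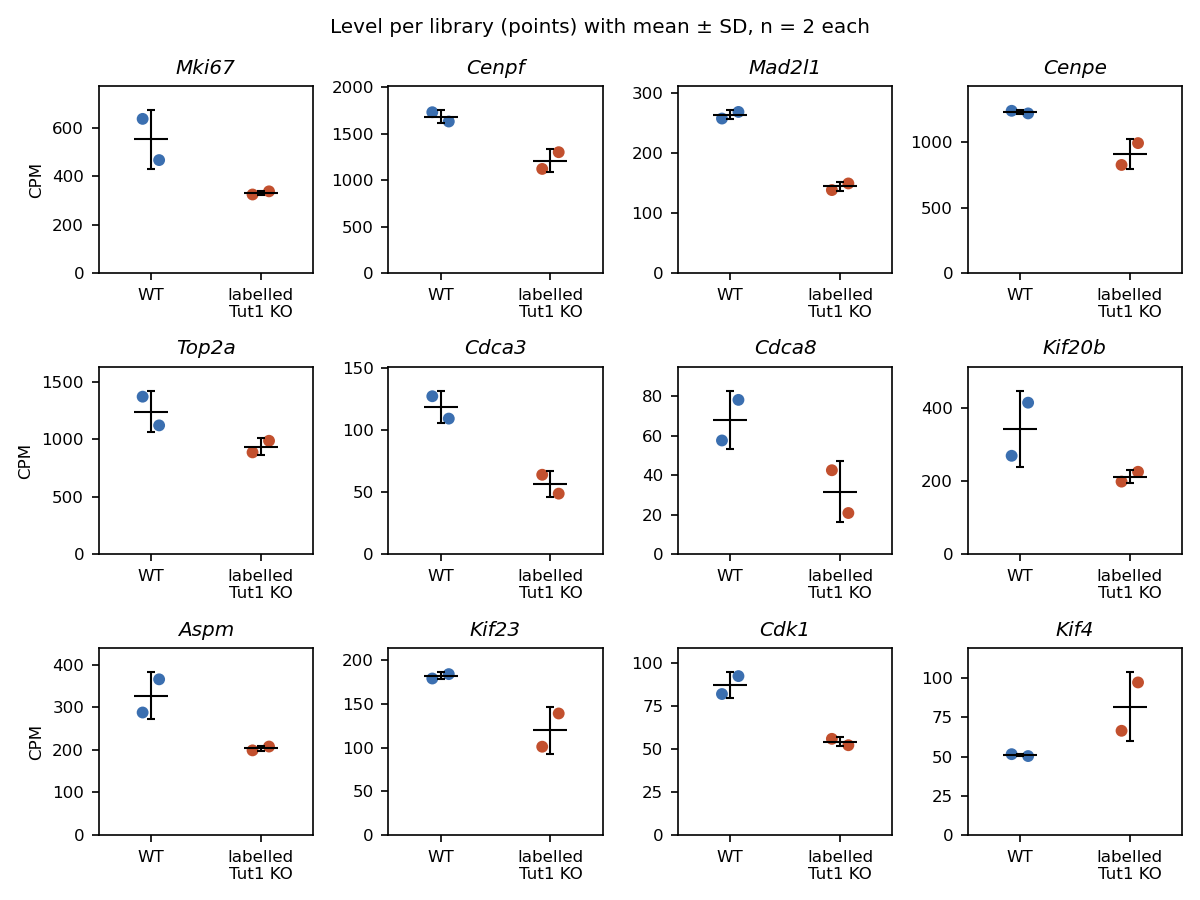
CPM (vertical axis, from 0) of 12 mitosis genes in each library (points) with the mean and SD of each group (n = 2 each), WT in blue and libraries labelled Tut1 knockout in red. The genes were picked after their values were seen: both red points lie below both blue points in 11 panels and above for Kif4, while of all 44 tested members 27 were lower in this way (20.8% of all tested genes), 1 was higher and 16 overlapped.

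The spindle group had 6 of 7 tested genes below 0 and none past the threshold. Aspm, a spindle pole protein of dividing neural progenitors whose loss in humans causes microcephaly, had 288 and 366 CPM in WT against 199 and 208 CPM in the libraries labelled Tut1 knockout. Kif20b, a kinesin of the central spindle, had 270 and 416 CPM in WT against 199 and 226 CPM in the others. In both genes the libraries labelled Tut1 knockout lay close together and below WT, while the WT libraries themselves were far apart, and the log2 fold changes were -0.69 ± 0.21 for Aspm (adjusted p = 0.0667, edgeR) and -0.70 ± 0.21 for Kif20b (adjusted p = 0.0708, edgeR). The Kif20b value was -0.98 without WT 1 (adjusted p = 0.0167) and -0.36 without WT 2 (adjusted p = 0.684). Tpx2, which activates Aurora A on spindle microtubules, had a log2 fold change of -0.38 ± 0.22 without overlap. The motor genes Kif11 and Kif2c had -0.38 ± 0.39 and -0.52 ± 0.46 with overlapping groups, and the microtubule bundler Nusap1 had -0.11 ± 0.38.

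Kif4, a chromosome-bound kinesin that organizes the anaphase midzone, was the member with both libraries labelled Tut1 knockout above both WT libraries. It had 51.5 and 50.3 CPM in WT against 66.4 and 97.2 CPM in the others, a log2 fold change of 0.66 ± 0.35 (adjusted p = 0.405, edgeR), and so did not pass the test. The gene lies on chromosome X, and the X inactivation RNA Xist had 64 counts in WT 1 and 0 in each of the other 3 libraries, where 0 allows up to 3 counts. Kif4 also shares 684 exonic bases with Pdzd11 on the other strand, which had 20 and 17 counts in WT against 27 and 12 in the others, and whether counting used strand is not stated. The part of sex or of the overlap in the Kif4 value was not tested. Hmmr and Ckap2l, both spindle assembly proteins, did not pass the filter, with 6 and 4 against 7 and 0 counts for Hmmr and 9 and 9 against 9 and 5 for Ckap2l.

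Cytokinesis genes had a median log2 fold change of -0.23. Kif23 and Racgap1 encode the 2 partners of centralspindlin, the complex that bundles the midzone. Kif23 had 179 and 184 CPM in WT against 101 and 139 CPM in the libraries labelled Tut1 knockout, a log2 fold change of -0.62 ± 0.25 (adjusted p = 0.231, edgeR). Racgap1 had 124 and 140 CPM in WT against 101 and 69.5 CPM in the others, a log2 fold change of -0.60 ± 0.28 (adjusted p = 0.31, edgeR). Neither gene's groups overlapped. Without the first library labelled Tut1 knockout the values were -0.39 for Kif23 and -0.92 for Racgap1, and without the second they were -0.84 and -0.39. Prc1, which cross-links midzone microtubules, had 200 and 176 CPM against 154 and 149 CPM and a log2 fold change of -0.30 ± 0.24. Ect2, the exchange factor that activates RhoA at the cell equator, Anln, the ring scaffold anillin, and Kif20a, a midzone kinesin, had overlapping groups and log2 fold changes of -0.13 ± 0.29, -0.15 ± 0.46 and 0.04 ± 0.34. The Kif20a counts were 27 and 22 in WT against 34 and 15 in the libraries labelled Tut1 knockout, and 979 of its exonic bases overlap Cdc23 on the other strand. Prc1 likewise shares 670 exonic bases with Rccd1 on the other strand.

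In the condensation group Mki67 fell. Its product, the proliferation marker Ki-67, coats mitotic chromosomes and keeps them apart, and the gene lies on chromosome 7 from 135689784 to 135716361 (minus strand). In stained sections of this tissue at E11.5, the study reports comparable Ki67 and BrdU labelling in both genotypes. That measure counts labelled cells and not RNA. Mki67 had 636 and 466 CPM in WT against 324 and 337 CPM in the libraries labelled Tut1 knockout, a difference of -40% between the group means. The WT libraries differed from each other by more than the lower of them differed from the others. The fit pools its error largely over genes, so this gap entered it only in part (log2 fold change -0.74 ± 0.18, adjusted p = 0.0173, edgeR). The call was kept without WT 2 (adjusted p = 0.00434) and lost without WT 1 (0.388) or without the first (0.333) or second (0.202) library labelled Tut1 knockout.

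Top2a, the topoisomerase that untangles sister chromatids, had 1370 and 1120 CPM in WT against 885 and 986 CPM in the others, without overlap, and a log2 fold change of -0.41 ± 0.14 (adjusted p = 0.114, edgeR). Among the condensin genes, the ATPase subunit Smc4 had 251 and 243 CPM against 151 and 208 CPM and a log2 fold change of -0.48 ± 0.22 (adjusted p = 0.32, edgeR). Its partner Smc2 had -0.19 ± 0.29 with overlapping groups. Of the condensin I subunits, Ncapd2 at -0.30 ± 0.21 and Ncapg at -0.66 ± 0.38 had groups that did not overlap, and Ncaph had 12 and 15 counts in WT against 12 and 16 in the others, a log2 fold change of 0.11 ± 0.42. Ncapg shares 701 exonic bases with Lcorl on the other strand. Differences between the subunits were not tested.

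Because read lengths can differ between long-read libraries, the members were also read by annotated length. All 9 members of 5000 bases or more had log2 fold changes below 0, with a median of -0.48, and they included the 3 called genes. Of the 1518 tested genes of that length 2.7% were called and 46.9% were below 0, and their median was 0.04. The 35 shorter members had -0.30 as their median with 31 below 0, where the 4359 shorter tested genes had a median of -0.03. With the length trend of each library removed, 40 of the 44 members were still below 0, the median was -0.43, and Aspm and Cenpe joined the 3 called genes, against 112 genes (1.91%) called in all.

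The wider mitotic machinery was read from a second list of 141 genes for cohesin, condensin II, the anaphase-promoting complex, further kinetochore, spindle and cytokinesis proteins and entry control. Of these 100 passed the filter and 69 had a log2 fold change below 0, against 51.6% of all tested genes, with a median of -0.18. Both libraries labelled Tut1 knockout lay below both WT libraries in 33 and above in 6, against 20.8% and 22.1% of all tested genes. The difference between this list and the 48 mitosis genes was not tested. None passed an adjusted p of 0.05 by edgeR, while 17 had an unadjusted p below 0.05, each lower in the libraries labelled Tut1 knockout, against 6.31% of all tested genes in that direction. DESeq2 also called 0 of them with 2 at an unadjusted p below 0.05, and limma-voom called 1, Oip5.

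Oip5, which encodes the centromere loading factor MIS18-beta, had 56 and 51 counts in WT against 30 and 23 in the libraries labelled Tut1 knockout, a log2 fold change of -0.96 ± 0.27 (adjusted p = 0.0548, edgeR), and it overlaps Nusap1 on the opposite strand. Rad21, the cohesin subunit cut at anaphase, had 158 and 148 counts against 136 and 58, so that 1 library carried most of its log2 fold change of -0.63 ± 0.20 (adjusted p = 0.0913, edgeR). Cdca2, Esco2 and Bora, which act in chromatin dephosphorylation at mitotic exit, cohesion and PLK1 activation, had log2 fold changes of -0.74 ± 0.25, -1.02 ± 0.36 and -0.80 ± 0.28. By role, Ncapg2, Ncaph2, Kif22, Cdca2, Ran and Rcc1 were listed together as condensin II and chromosome structure. Of these only Ncapg2 and Ncaph2 encode condensin II subunits. In this mixed group 6 of 6 tested genes were below 0 with a median of -0.31. The spindle, centrosome and centriole group had 19 of 26 below 0 with a median of -0.43, which was -0.16 over all 37 genes with the filter removed. The further kinetochore genes had 16 of 23 below 0 with a median of -0.25, and entry control genes 8 of 12 with -0.24, or -0.48 over all 22 with the filter removed. Cohesin and the anaphase-promoting complex had medians of -0.08 (-0.14 over all 17) and -0.09, and the further cytokinesis genes had 0.13 over the 6 tested and -0.03 over all 7 with the filter removed.

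DNA replication precedes mitosis, and its genes were read from a list of 45. Of 36 tested, 28 had a log2 fold change below 0, against 51.6% of all tested genes, with a median of -0.25. The summed level was 4253 and 3732 CPM in WT against 3152 and 3362 CPM in the libraries labelled Tut1 knockout. By edgeR 0 were called, against 2.06% of all tested genes. An unadjusted p below 0.05 with the lower level in the libraries labelled Tut1 knockout was reached by 4, against 6.31% of all tested genes. With the higher level it was reached by 1, against 463 of all 5878.

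Markers of the cells in the dissected tissue were measured alongside. Of the 11 dorsal progenitor markers 6 of 8 tested were below 0, against 51.6% of all tested genes. The summed level of the 11 was 2019 to 2229 CPM in WT and 1310 to 1504 CPM in the libraries labelled Tut1 knockout. Lhx2, a selector gene of the pallium, fell from 348 and 272 to 106 and 106 counts and supplied most of that difference (log2 fold change -1.49 ± 0.18, adjusted p = 6.48e-07, edgeR). Emx2 had 48 and 62 counts against 23 and 31, a log2 fold change of -0.96 ± 0.28 (adjusted p = 0.0639, edgeR). The other 6 tested progenitor genes had -0.60 (Sox2), -0.36 (Hes1), -0.14 (Pax6), -0.04 (Nes), 0.06 (Vim) and 0.66 (Fabp7), none past the threshold. Emx1 had 6 and 7 against 1 and 2 counts, and Hes5 was at 0 in WT 1. Of 15 markers of neurons and intermediate progenitors all 11 tested were above 0, against 2846 of all 5878 tested genes, with a median of 0.65. The summed level of the 15 was 1542 to 1633 CPM in WT and 2334 to 2517 CPM in the others. Mapt and Dcx, microtubule-binding proteins of young neurons, rose by 1.83 ± 0.22 and 1.17 ± 0.24 on the log2 scale (adjusted p = 8.85e-07 and 0.00461, edgeR), and Reln was at 0 in both WT libraries.

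Other cell types were read in the same way. Of 7 microglial markers the 4 tested all rose, where 2846 of all 5878 tested genes were above 0. Among them were Cx3cr1 and Aif1 at log2 fold changes of 2.33 ± 0.42 and 2.02 ± 0.41 (adjusted p = 0.000755 and 0.00316, edgeR). The sum over the 7 went from 96.93 to 106.1 CPM in WT to 336.9 to 401.3 CPM in the others. C1qa was at 0 in WT and C1qb at 0 in 3 of the libraries. The 6 mesenchymal markers summed to 93.9 to 237.4 CPM in WT and 295.2 to 438.5 CPM in the others, with Col1a2 past the threshold and Lum at 0 in WT 1. The 6 endothelial markers summed to 93.9 to 108.9 CPM against 170.1 to 170.2 CPM, with none called by edgeR and Cldn5 at 0 in 1 library. The 8 red cell genes summed to 1378 to 1852 CPM against 1521 to 2296 CPM, with none at 0 and Hbb-bh1 past the threshold and lower. Of 8 ventral telencephalon markers 6 were in the table and summed to 15.15 to 72.62 CPM in WT and 97.25 to 186 CPM in the others, with Dlx1 past the threshold and Dlx1, Dlx2, Dlx5, Gsx2 and Gad2 at 0 in WT 1. The part of these changes in the lower mitosis genes was not tested.

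**Figure D5:**
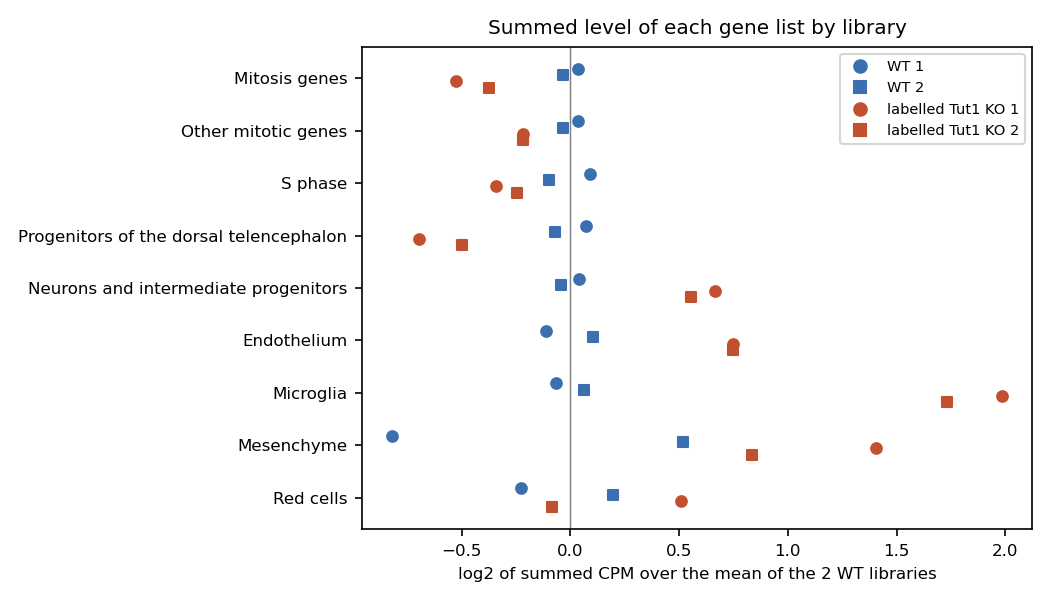
Summed CPM of each gene list in each library as log2 of its ratio to the mean of the 2 WT libraries (horizontal axis), with WT in blue, libraries labelled Tut1 knockout in red, and circles and squares for the first and second library of a group. The mitosis genes sit left of 0 in both red libraries (6418 and 7144 CPM against 9466 and 9044 CPM), neurons and microglia right of it.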

How the data were processed

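Per the labels and the methods of the study, RNA of micro-dissected tissue was poly(A)-enriched and sequenced on the Nanopore platform, and the authors used minimap2 for alignment against Ensembl transcripts of the mouse and FLAIR for what followed. The deposited table holds raw read counts per Ensembl gene on GRCm38, with no normalization. How isoforms were summed, how reads matching several genes were assigned and whether strand was used are not given in the sources used here, so reads of pseudogenes or antisense genes can be exchanged with those of a member. Columns were matched to samples by the names in the sample descriptions. GENCODE M21 (GRCm38) gave symbols, 1-based positions and transcript lengths for 16436 of 16449 identifiers (99.9%), and RefSeq windows on GRCm38.p6 gave promoter sequences.

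Genes were kept by filterByExpr (minimum count 10, minimum total 15), scaled by TMM and tested with the quasi-likelihood test of edgeR 4.0.16 in R 4.3.3, WT against libraries labelled Tut1 knockout, two-sided, with Benjamini-Hochberg adjustment over all 5878 tested genes and a threshold of 0.05. The biological coefficient of variation was 10.5%. WT replicates correlated at r = 0.935 in log2 CPM and the others at 0.933, against 0.902 to 0.914 between groups. The floor of 3 counts (8 to 10.4 CPM per library) covers counting error only, while the SE and SD values include the spread between libraries. The rule for the members names genes by function and uses no value, but the members, lists and tests were chosen with earlier results of these data known. Members given with values in every library were those with an unadjusted p below 0.05, those above 0, those not tested, and in each role the smallest p and the highest mean CPM. The other mitotic genes given with values were the 5 of smallest p, and the tested genes of 1 role were listed by name. From each further list up to 2 called genes were named. Other markers were named after their values were seen, and 1 progenitor marker is not reported here by itself. Near copies were found with BLASTN 2.17.0 (at least 90% identity over 300 bases). Pseudogene copies were found for 10 members: Bub3, Ccnb1, Cdc20, Cenpe, Kif11, Mad2l1, Plk1, Prc1, Racgap1 and Ube2c. Exons of 5 members overlapped a gene on the other strand over that length: Kif4, Kif20a, Ccna2, Prc1 and Ncapg. As alternatives, scaling was by median of ratios or by total counts, the filter was dropped, and the other fits were DESeq2 1.42.0, limma-voom (limma 3.58.1), bias-adjusted quasi-likelihood, the replicate number as a block, a per-library loess on transcript length (span 0.5), and each library left out. The scripts were tested on simulated data.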

Additional observations from a re-analysis of the deposited data

How the results depend on the processing

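Of the 44 tested mitosis genes 3 were called and 40 had a log2 fold change below 0. The number below 0 was 40 under median-of-ratios factors, total counts, DESeq2, limma-voom, bias-adjusted quasi-likelihood and removal of the length trend, and 42 of 48 with no filter. It lay between 37 and 38 with 1 library left out. The median of -0.42 ranged from -0.43 to -0.35 over the settings that used all 4 libraries, and from -0.51 to -0.34 with 1 left out. The number called moved more. DESeq2 called 0 members, with 8 at an unadjusted p below 0.05 and no adjusted p for 14, and 12 genes in all against 121. Removal of the length trend called 5 of 112 in all, and limma-voom 4 of 123, with Cenpe added. With 1 library left out 0 to 1 were called, Kif20b without WT 1, Mki67 without WT 2 and 0 without either library labelled Tut1 knockout, where 3 and 35 genes were called in all. Without either WT library 75 and 108 were. Total counts called 2, with Cenpf lost, and moved the share of higher genes among all calls from 67.8% to 81.4% and the median of all genes to 0.05.

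With the replicate number as a block in edgeR, 1 member (Mki67, adjusted p = 0.04) and 76 genes in all were called. The calls of Mad2l1 and Cenpf were lost (adjusted p = 0.0557 and 0.0595, edgeR). Under the block 41 members were below 0, and Kif20a had a log2 fold change of -0.01. The differences of same-numbered libraries correlated at -0.061 between the groups, so the numbers were not taken to pair the libraries. Of the other mitotic genes 0 were called, and 1 with limma-voom, 1 with bias-adjusted quasi-likelihood, and 0 to 2 with 1 library left out.

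Members whose log2 fold change crossed 0 with 1 library left out were Cdc20 (-0.38 to 0.11), Ube2c (-0.32 to 0.18), Ttk (-0.99 to 0.53), Aurkb (-0.57 to 0.22), Incenp (-0.57 to 0.11), Bub1b (-0.67 to 0.34), Spc25 (-0.18 to 0.62), Nusap1 (-0.71 to 0.39), Kif20a (-0.45 to 0.34), Ect2 (-0.32 to 0.08), Smc2 (-0.51 to 0.11) and Ncaph (-0.30 to 0.50). Others kept their sign but moved by over 1.5 times: Cdca8 (-1.69 to -0.68), Ncapg (-1.0 to -0.21), Bub1 (-0.93 to -0.32), Kif2c (-0.87 to -0.17), Plk1 (-0.89 to -0.24), Racgap1 (-0.92 to -0.39), Kif23 (-0.84 to -0.39), Kif20b (-0.98 to -0.36), Smc4 (-0.70 to -0.25), Ccnb1 (-0.69 to -0.23), Ccna2 (-0.67 to -0.06), Kif11 (-0.67 to -0.08), Knl1 (-0.66 to -0.28), Birc5 (-0.62 to -0.24), Top2a (-0.56 to -0.27), Tpx2 (-0.54 to -0.20), Bub3 (-0.53 to -0.07), Aurka (-0.40 to -0.02), Anln (-0.28 to -0.04) and Kif4 (0.38 to 0.93). Of the members named in this paragraph Kif20b alone was called with a library left out, and the cause of these moves was not tested.

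With 2 libraries a group, the standard errors of members below 100 CPM (0.29 to 0.48) were of the size of the median difference, so a member without a call is not shown to be unchanged. Leaving out 1 library leaves a group of 1, which is then assumed to vary like the other group.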
